A study of Mus musculus with 8 samples.

Results

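The enzymes of glycolysis and of the tricarboxylic acid (TCA) cycle, with lactate dehydrogenase, the pyruvate dehydrogenase complex, its kinases and pyruvate carboxylase, were followed in mouse cortex. Members were chosen by gene symbol among probe sets annotated with a single symbol, and each gene was represented by its probe set with the highest mean log2 signal over all arrays. This gave 44 genes of 8252 with a single symbol on the array, measured by 65 probe sets of 12488. RNA came from cortex of individual male mice on the C57/bl6 background, labelled as 4 months of age. Wild-type (WT) mice were compared with mice homozygous null for both *Sharp1* and *Sharp2* (S1/2-/-), at ZT4 in the light and at ZT16 in the dark, where ZT counts the hours from light onset. Each of the 4 groups held 2 mice with 1 array each, so the array number limits the precision of every value. The S1/2-/- mice carry constitutive null alleles, so both genes are missing from every cell type and throughout development. The tissue was cortex cut from coronal slices, a mixture of neurons, glia and vessels.

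Glycolysis splits glucose into pyruvate in the cytosol and yields a little ATP and NADH on the way. Lactate dehydrogenase interconverts pyruvate and lactate, whereas the pyruvate dehydrogenase complex commits pyruvate to the mitochondrion as acetyl-CoA, which the TCA cycle oxidizes to carbon dioxide while it loads electron carriers for the respiratory chain. Brain tissue depends on glucose, and glial and neuronal cells are known to differ in how much they rely on glycolysis and on oxidation. SHARP1 and SHARP2 are basic helix-loop-helix repressors that bind the E-box sequence CACGTG.

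That motif was therefore looked up in the promoters of the members, taken from RefSeq on GRCm38.p6 as windows from 250 bases before to 50 bases after each start. Windows were found for 43 of the 44 genes, 62 in all, and *Idh3a* was the gene with none in the table. The motif reads the same on both strands and was present in 6 of the 62 windows (9.68%), against 7.15% of 32851 windows of all genes. It was found in 4 genes (9.30% of 43, against 8.09% of all genes with a window). These were *Ldha* (1 of 2 windows), *Pfkm* (1 of 4), *Pcx* (1 of 2) and *Ogdh* (3 of 6). The promoters of *Ldha*, which makes the A subunit of lactate dehydrogenase, and of *Ogdh*, which makes the 2-oxoglutarate-oxidizing subunit of a TCA cycle complex, are shown with the motif in capitals. Those of *Idh2* and *Pgam1*, whose signals separated the genotypes, held no match. Each sequence covers the 250 bases before a start and is written 5′ to 3′ on the strand of the gene, at chr7:46845554-46845803 (plus strand) for *Ldha*, chr11:6291920-6292169 (plus strand) for *Ogdh*, chr7:80115351-80115600 (minus strand) for *Idh2* and chr19:41911621-41911870 (plus strand) for *Pgam1*.
Ldha: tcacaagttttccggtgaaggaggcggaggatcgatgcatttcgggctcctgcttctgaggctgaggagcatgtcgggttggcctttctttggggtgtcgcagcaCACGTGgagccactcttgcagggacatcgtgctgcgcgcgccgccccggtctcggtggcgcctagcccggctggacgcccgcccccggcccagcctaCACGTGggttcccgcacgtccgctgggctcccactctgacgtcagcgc
Ogdh: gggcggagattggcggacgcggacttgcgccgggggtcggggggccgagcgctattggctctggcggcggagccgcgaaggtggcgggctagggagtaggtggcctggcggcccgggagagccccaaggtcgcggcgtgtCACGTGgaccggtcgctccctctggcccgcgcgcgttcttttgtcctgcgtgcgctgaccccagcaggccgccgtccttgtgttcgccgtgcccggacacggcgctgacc
Idh2: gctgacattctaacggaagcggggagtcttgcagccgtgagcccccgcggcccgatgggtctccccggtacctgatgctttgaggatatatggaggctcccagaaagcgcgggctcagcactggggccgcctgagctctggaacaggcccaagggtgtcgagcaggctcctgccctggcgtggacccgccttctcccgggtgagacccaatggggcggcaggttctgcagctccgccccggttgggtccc
Pgam1: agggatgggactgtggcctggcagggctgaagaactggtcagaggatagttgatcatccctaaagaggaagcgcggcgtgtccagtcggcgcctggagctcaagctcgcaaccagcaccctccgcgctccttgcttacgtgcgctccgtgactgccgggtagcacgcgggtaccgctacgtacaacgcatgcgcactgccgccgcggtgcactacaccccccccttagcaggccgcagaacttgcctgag
The *Ldha* stretch held the motif 2 times. The *Ogdh* stretch held it 1 time, 110 bases before the start, and 3 of the 6 *Ogdh* windows had it. Of these, the windows that begin at chr11:6292308 and chr11:6292329 overlap and hold the same match. Counts of windows are therefore not counts of separate sites. A match describes the letters of these windows only.

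Several properties of the whole data set bear on the values. The probe set for *Bhlhe40*, which encodes SHARP2, gave signals of 983 to 1285 on the WT arrays and 834 to 1043 on the S1/2-/- arrays. None of the sources used here places it relative to the deleted part, so it does not check the genotype, and *Bhlhe41* was not analysed here. The array of WT ZT16 replicate 2 stood apart, with correlations of 0.944 to 0.955 with the other arrays, against 0.950 to 0.965 among those. All 10 neuronal markers on the array, among them *Snap25*, passed the filter on low signals. Signals of striatal, choroid plexus and oligodendrocyte markers varied between arrays of the same study and are given beside the results they move with.

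Of the 44 members, 37 passed the filter, a mean log2 signal of at least 6.79. The 7 below it were *Aco1*, *Hk2*, *Idh3b*, *Ldhc*, *Pdha2*, *Pgam2* and *Pklr*, a set that includes testis forms (*Ldhc* and *Pdha2*), the muscle mutase *Pgam2* and the liver pyruvate kinase *Pklr*. Signals of *Aco1*, cytosolic aconitase, were 33.9 and 26.5 in WT against 74.2 and 23.8 in S1/2-/- mice at ZT4. At ZT16 they were 39.7 and 33.5 in WT against 57.0 and 64.2 in S1/2-/- mice, so the genotypes overlapped at this low level. Those that passed were 14 of 17 genes of glycolysis, 2 of 3 of lactate dehydrogenase, 7 of 8 of the pyruvate dehydrogenase complex and its kinases, and 14 of 16 of the TCA cycle with pyruvate carboxylase. The members were bright, with a median mean log2 signal of 11.17 against 8.89 for all 7455 probe sets tested.

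The enzyme signals were steady across mice. The SD of the log2 signal over the 8 arrays had a median of 0.15 for the members, against 0.22 for all tested probe sets, which were dimmer. For 29 of the 37 members the highest array was less than 1.5 times the lowest. The steadiest were *Suclg1*, a subunit of succinyl-CoA ligase, with 1.11 times between the lowest and the highest array, *Dlst* with 1.13 times and *Pgk1*, phosphoglycerate kinase, with 1.13 times. At the other end stood the kinases that switch the pyruvate dehydrogenase complex off, *Pdk4* with 2.17 times and *Pdk1* with 2.15 times, followed by *Hk1*, hexokinase of brain, with 1.79 times. WT ZT16 replicate 2 held the lowest signal of 8 members and the highest of 8 others.

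**Figure D1:**
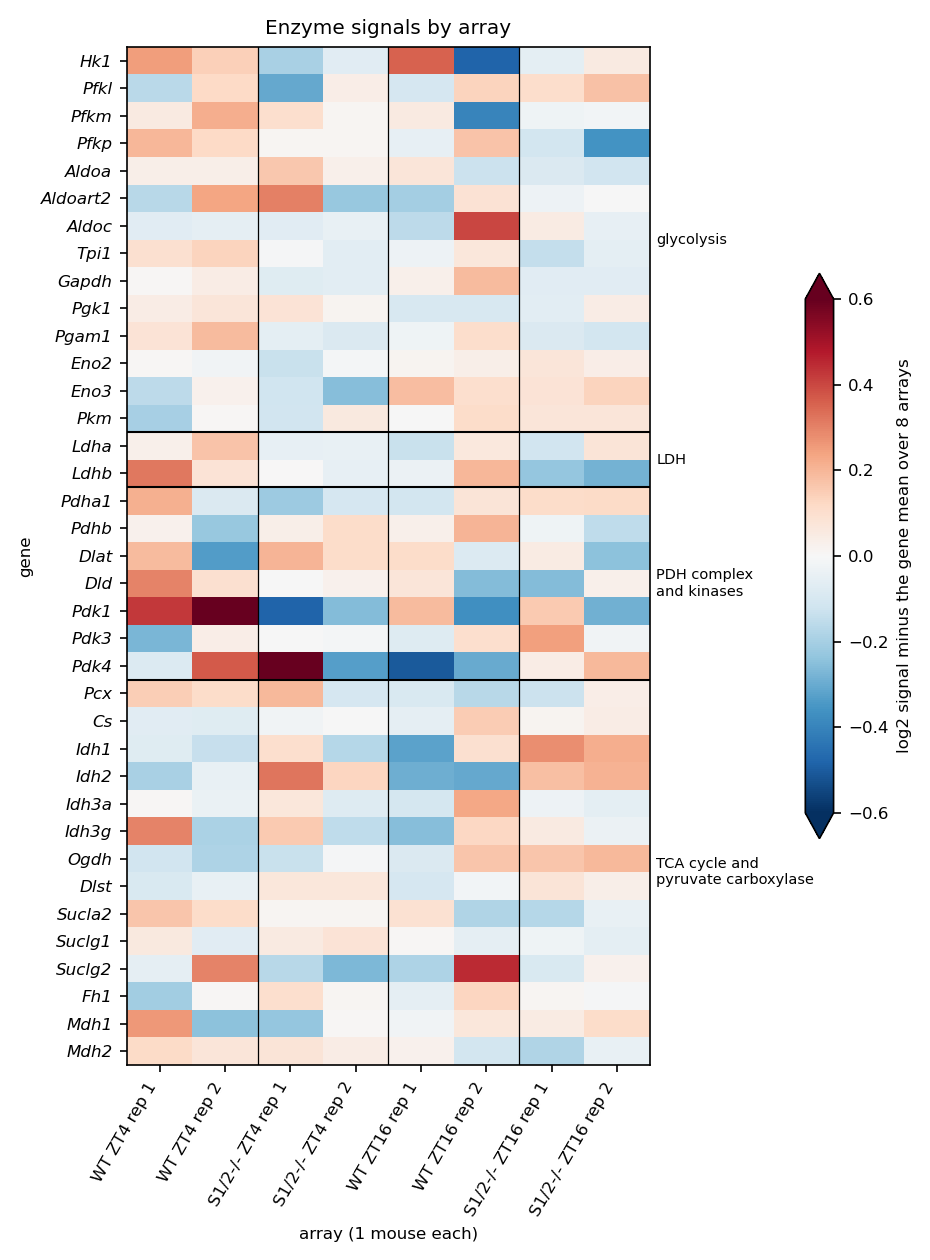
Log2 signal of the 37 members that passed the filter, as the deviation from the mean of each gene over 8 arrays, with 1 column per array and the genes in pathway order (colour scale limited to 0.6 on either side). Most rows are pale, *Pdk1* and *Pdk4* vary most, and WT ZT16 replicate 2 is low for *Hk1* and *Pfkm* and high for *Aldoc*.

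Whether loss of SHARP1 and SHARP2 changed these enzymes was asked by comparing S1/2-/- with WT mice, averaged over both times. Differences were small. A called difference had to exceed 1.5-fold with a Benjamini-Hochberg adjusted p under 0.05 in limma, and 0 of 37 members were called, where 19 of all 7455 probe sets (0.255%) were. Ordinary ANOVA called 0 members and 0 of all 7455 probe sets. At an unadjusted p under 0.05, 7 of 37 members (18.9%) stood against 12.4% of all probe sets, 6 of them lower in S1/2-/- mice (16.2%, against 5.98% of all probe sets lower) and 1 higher. This count rested on single arrays: it was 3, with 2 lower, when WT ZT4 replicate 2, S1/2-/- ZT4 replicate 1, S1/2-/- ZT4 replicate 2 or S1/2-/- ZT16 replicate 2 was left out, where 8.73% to 11.3% of all probe sets passed, and it was 5 to 9 without any of the others. It was 4 after quantile normalization (11.9% of all) and 3 without the intensity trend (10.7% of all), so the share of members above that of all probe sets did not hold in these settings. The 6 lower members were *Ldhb*, *Pgam1*, *Gapdh*, *Pfkp*, *Pdk1* and *Tpi1*, so 4 of the 14 glycolytic genes were among them. Over the 37 members the median difference was -0.02 on the log2 scale, with 17 higher and 20 lower. Over all tested probe sets 49.2% to 51.3% were higher in the 7 comparisons. The split of the members depended on the scaling of the arrays: with each array centred on its median, 6 members were higher and 31 lower, the median was -0.08, and the median of all probe sets moved to -0.07.

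*Ldhb*, which makes the B subunit of lactate dehydrogenase that prevails in heart and in neurons, had the lowest p. Its signals were 6391 and 5427 in WT against 5145 and 4961 in S1/2-/- mice at ZT4, then 5008 and 5901 in WT against 4372 and 4222 in S1/2-/- mice at ZT16. At each time both S1/2-/- mice were below both WT mice, and across the times only 1 WT array fell below the highest S1/2-/- array. The difference was -0.28 on the log2 scale (SE 0.08, 4 arrays against 4, adjusted p = 0.225 from limma), or 0.823 times the WT level. It was -0.22 without WT ZT16 replicate 2. *Ldha* gave 5855 and 6456 in WT against 5550 and 5553 in S1/2-/- mice at ZT4, then 5234 and 5998 in WT against 5290 and 6053 in S1/2-/- mice at ZT16. Here the genotypes overlapped at ZT16, and the difference of -0.07 had a 95% interval of -0.23 to 0.10.

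Phosphoglycerate mutase 1, the product of *Pgam1*, moves a phosphate within its sugar acid late in glycolysis. Signals of *Pgam1* were 7303 and 7866 in WT against 6627 and 6490 in S1/2-/- mice at ZT4, then 6771 and 7416 in WT against 6494 and 6397 in S1/2-/- mice at ZT16. All 4 S1/2-/- arrays were below all 4 WT arrays. The log2 difference was -0.17 (SE 0.06, adjusted p = 0.299 from limma), or 0.887 times WT. It shrank to -0.14 without WT ZT16 replicate 2 and grew to -0.21 without WT ZT16 replicate 1.

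*Gapdh*, the glycolytic dehydrogenase often used as a reference transcript, also separated the genotypes. WT signals were 33038 and 33915 at ZT4, then 33608 and 37562 at ZT16, and S1/2-/- signals were 31258 and 31536 at ZT4, then 31367 and 31444 at ZT16. The S1/2-/- arrays lay close together and below every WT array, at a log2 difference of -0.14 (SE 0.05, adjusted p = 0.321 from limma). Without WT ZT16 replicate 2, the highest of the 8, it was -0.10, and without WT ZT16 replicate 1 it was -0.18. After quantile normalization it was -0.02. The value comes from the 5′ control probe set of the array. The probe set for the middle of the transcript had S1/2-/- signals of 28954 to 30564 and WT signals of 30567 to 38635, and the 3′ probe set overlapped between the genotypes, at 27705 to 30076 and 29211 to 36085. The ratio of the 3′ to the 5′ signal was 0.884 to 0.887 on the ZT4 arrays and 0.918 to 0.961 on the ZT16 arrays. This *Gapdh* ratio moved with time and overlapped between the genotypes at each time. The same ratio for *Actb*, the beta-actin control, was 1.913 to 2.299 on the WT arrays and 1.757 to 1.902 on the S1/2-/- arrays, without overlap. Its part in the genotype differences of the enzymes was not tested.

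*Tpi1*, triosephosphate isomerase, and *Pfkp*, the platelet-type phosphofructokinase that is also expressed in brain, were lower in S1/2-/- mice as well, short of the threshold. *Tpi1* gave 8573 and 8777 in WT against 7978 and 7677 in S1/2-/- mice at ZT4, then 7852 and 8392 in WT against 7243 and 7695 in S1/2-/- mice at ZT16. Within each time the S1/2-/- mice were below the WT mice, and the log2 difference was -0.13 (SE 0.06, adjusted p = 0.374 from limma). *Pfkp* gave 2315 and 2188 in WT against 2033 and 2031 in S1/2-/- mice at ZT4, then 1948 and 2268 in WT against 1865 and 1571 in S1/2-/- mice at ZT16. The order within each time was the same as for *Tpi1*, with a log2 difference of -0.22 (SE 0.09, adjusted p = 0.344 from limma). Without WT ZT16 replicate 2 the differences were -0.11 and -0.17, and that of *Tpi1* was -0.07 after quantile normalization. Larger values were -0.16 for *Tpi1* without WT ZT16 replicate 1 and -0.28 for *Pfkp* without S1/2-/- ZT16 replicate 1. A second *Pfkp* probe set gave -0.14.

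**Figure D2:**
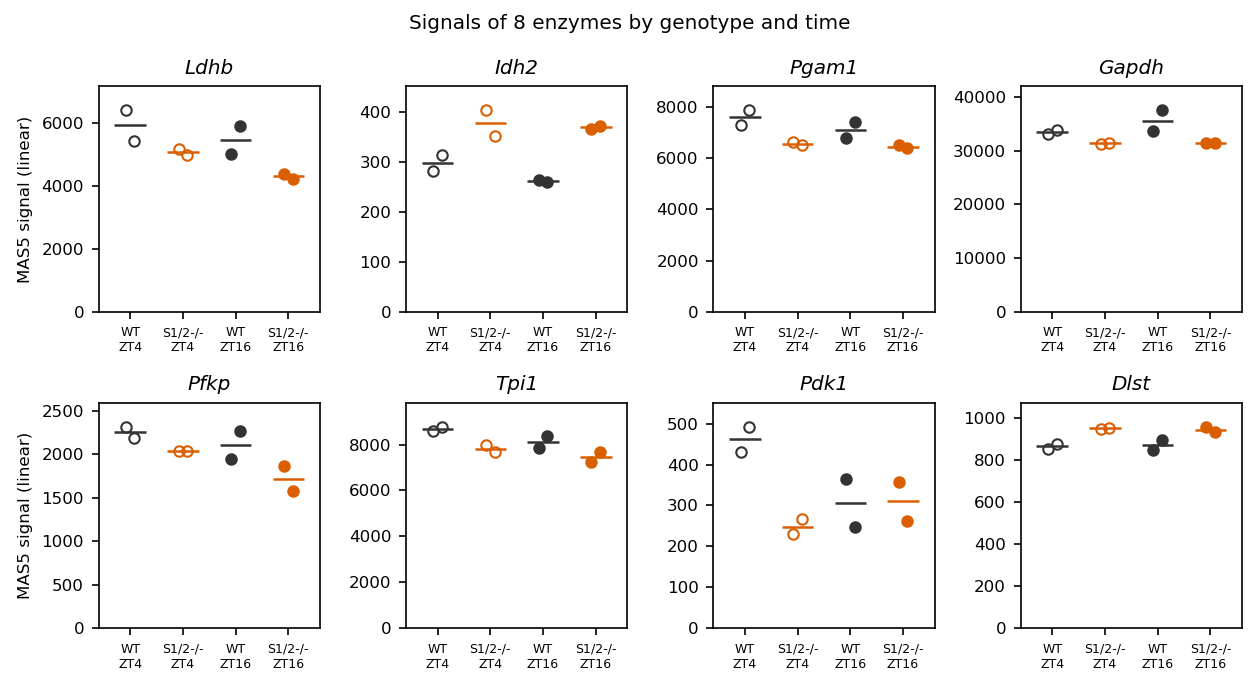
MAS5 signals (linear axis from 0) of 8 enzymes, with 1 point per mouse, bars at the mean of 2 mice, WT in grey, S1/2-/- in orange, ZT4 open and ZT16 filled. *Pgam1* and *Gapdh* are lower and *Idh2* and *Dlst* higher in all 4 S1/2-/- mice than in all 4 WT mice. For *Pdk1* the genotypes are apart at ZT4 and overlap at ZT16.

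The other glycolytic enzymes gave no such separation. *Hk1*, which traps glucose as its phosphate, had signals of 5975 and 5543 in WT against 4399 and 4790 in S1/2-/- mice at ZT4, then 6433 and 3603 in WT against 4830 and 5217 in S1/2-/- mice at ZT16. The WT ZT16 replicate 2 array was the lowest of the 8 and the other 3 WT arrays were the highest. With it, the log2 difference was -0.13 (SE 0.15, adjusted p = 0.751 from limma), and without it -0.34 (SE 0.07, adjusted p = 0.117 from limma), the lowest p among the members in that setting. *Pkm*, pyruvate kinase, gave 11780 to 14612 in WT and 12493 to 14242 in S1/2-/- mice, a difference of 0.04 with a 95% interval of -0.11 to 0.19. *Pgk1* gave 3886 to 4369 and 3974 to 4402, a difference of 0.04 (-0.10 to 0.18), and *Eno2*, the neuronal enolase, 8961 to 9336 and 8290 to 9575, a difference of -0.02 (-0.14 to 0.11). *Pfkm*, the muscle-type phosphofructokinase, gave 2712 to 4150 and 3508 to 3822, with a difference of 0.04 (-0.18 to 0.25). For *Aldoa*, an aldolase, the chosen probe set gave 9305 to 10701 in WT and 9422 to 11411 in S1/2-/- mice, a difference of 0.00 as rounded, while its dimmer probe set gave -0.18 with 2946 to 3341 against 2560 to 2989. Both probe sets overlapped between the genotypes, and both may also measure near-identical aldolase copies.

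In the pyruvate dehydrogenase branch the catalytic subunits differed little. *Pdha1*, which makes the E1 alpha subunit, gave 3376 to 4221 in WT and 3124 to 3934 in S1/2-/- mice, a difference of -0.05 (95% interval -0.24 to 0.14). *Pdhb*, the E1 beta subunit, gave 2544 to 3431 and 2687 to 3221, a difference of -0.02 (-0.20 to 0.17). *Pdk1* was lower at a log2 difference of -0.43 (SE 0.18, adjusted p = 0.365 from limma), which averages -0.89 at ZT4 and 0.02 at ZT16. *Pdk3*, another of these kinases, gave 688 to 891 and 820 to 986, a difference of 0.11 (-0.15 to 0.36).

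*Idh2*, the mitochondrial NADP-dependent isocitrate dehydrogenase, was the TCA-linked member that was higher in S1/2-/- mice. Its signals were 282 and 313 in WT against 404 and 353 in S1/2-/- mice at ZT4, then 263 and 261 in WT against 366 and 373 in S1/2-/- mice at ZT16. All 4 S1/2-/- arrays were above all 4 WT arrays. The log2 difference was 0.42 (SE 0.14, adjusted p = 0.290 from limma), 1.34 times WT, and it stayed at 0.42 without WT ZT16 replicate 2. *Dlst*, the succinyltransferase of the 2-oxoglutarate dehydrogenase complex, had WT signals of 852 and 878 at ZT4, then 847 and 897 at ZT16, and S1/2-/- signals of 949 and 952 at ZT4, then 958 and 931 at ZT16. These did not overlap either, at a difference of 0.13 (SE 0.09, adjusted p = 0.588 from limma), but a second *Dlst* probe set gave 0.03. *Idh1*, the cytosolic counterpart of *Idh2*, gave 428 to 570 in WT and 474 to 648 in S1/2-/- mice, with a difference of 0.21 (95% interval -0.08 to 0.51).

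By the chosen probe sets, the core of the cycle differed little between the genotypes. *Cs*, citrate synthase, gave 3041 to 3557 in WT and 3152 to 3296 in S1/2-/- mice, a difference of 0.02 (95% interval -0.14 to 0.18). *Idh3g*, a subunit of the NAD-dependent isocitrate dehydrogenase, gave 2142 to 3145 and 2305 to 2855, a difference of 0.01 (-0.27 to 0.30). *Fh1*, fumarase, gave 1015 to 1281 and 1166 to 1258, a difference of 0.06 (-0.14 to 0.27). *Sucla2*, the ATP-forming subunit of succinyl-CoA ligase, gave 2746 to 3492 and 2765 to 3142, a difference of -0.10 (-0.27 to 0.08). Its second, dimmer probe set gave -0.37 (unadjusted p = 0.014 from limma without the filter). There the WT signals were 684 to 917 and the S1/2-/- signals 460 to 659, without overlap. *Mdh2*, mitochondrial malate dehydrogenase, gave -0.05 (-0.19 to 0.09) and *Ogdh* 0.11 (-0.07 to 0.29). *Pcx*, pyruvate carboxylase, which refills the cycle, gave 772 to 959 in WT and 792 to 992 in S1/2-/- mice, a difference of 0.00 as rounded (-0.23 to 0.23). The genes with the E-box in a promoter window, *Ldha*, *Pfkm*, *Pcx* and *Ogdh*, had genotype differences between -0.07 and 0.11. A link between the motif and the signals was not tested.

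**Figure D3:**
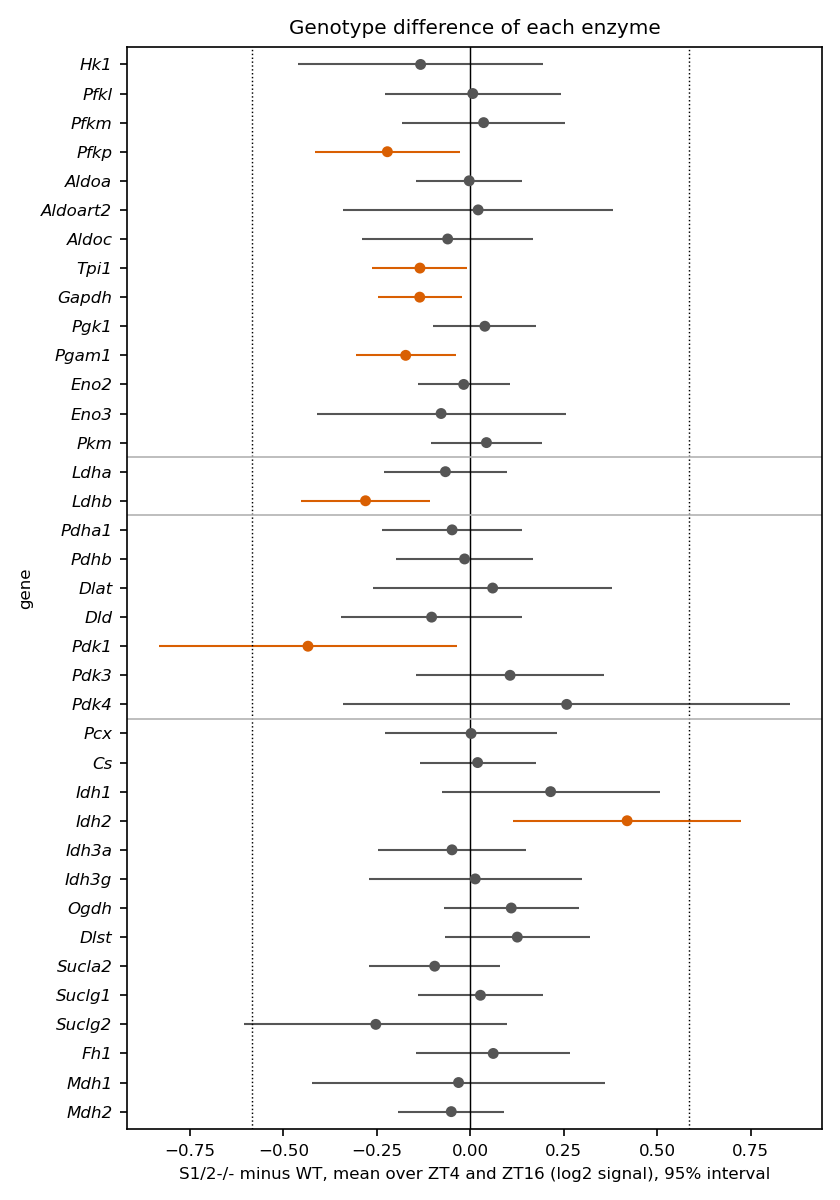
S1/2-/- minus WT difference of log2 signal, averaged over ZT4 and ZT16, for the 37 members, with 95% intervals from limma. Orange marks an unadjusted p under 0.05, dotted lines mark a 1.5-fold change and grey lines separate the pathway sections. For 33 members the whole interval lies inside the dotted lines.

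For 33 of 37 members (89.2%) the 95% interval of the genotype difference excluded a 1.5-fold change in either direction, which held for 63.4% of all tested probe sets. The 4 members for which it did not were *Idh2*, *Pdk1*, *Pdk4* and *Suclg2*. In 4 members the genotypes did not overlap, 2 lower (*Gapdh* and *Pgam1*) and 2 higher (*Dlst* and *Idh2*), which is 10.8% of 37 against 7.19% of all probe sets. The 9 members at an unadjusted p under 0.05 without WT ZT16 replicate 2 (against 11.2% of all probe sets) comprised 6 lower ones, and *Hk1*, *Idh1*, *Ogdh* and *Sucla2* entered while *Pfkp* and *Tpi1* left.

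Position was compared because both deleted genes lie on chromosome 6. By the RefSeq annotation of GRCm38.p6, 7 of the 37 members tested are on chromosome 6, *Eno2*, *Gapdh*, *Ldhb*, *Pdk4*, *Suclg1*, *Suclg2* and *Tpi1*. Of the chromosome 6 members, 3 had an unadjusted p under 0.05 for genotype, all lower (*Gapdh*, *Ldhb* and *Tpi1*), against 4 of the 30 members on other chromosomes. Over all tested probe sets with a symbol the shares were 13.3% of 369 on chromosome 6 and 12.0% of 6398 elsewhere. The shares that were lower were 6.23% and 5.61%. *Ldhb* lies 17 protein-coding genes from *Bhlhe41*, whereas *Gapdh* lies 190 such genes from *Bhlhe40* and 212 from *Bhlhe41*, and *Tpi1* lies 171 and 231 genes from them. *Suclg2* lies 31 such genes from *Bhlhe40*, at a genotype difference of -0.25 (unadjusted p = 0.14 from limma). This grouping was chosen after the values were seen and was not tested.

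Markers of other cells moved with genotype. Of 8 oligodendrocyte markers on the array, 7 were tested, all 7 were higher in S1/2-/- mice, and 4 of them were called, with a median log2 difference of 0.68. Their summed signal was 16854 to 18621 in WT and 28404 to 29580 in S1/2-/- mice at ZT4, then 22386 to 22904 in WT and 26041 to 28266 in S1/2-/- mice at ZT16. Of 9 astrocyte markers 6 were higher, with a median of 0.21 and 1 called, *Gfap*, at a summed signal of 34542 to 37334 in WT and 35043 to 39356 in S1/2-/- mice. *Aldoc*, which counts among both the astrocyte markers and the glycolytic members, differed by -0.06. Of 10 neuronal markers 3 were higher and 7 lower (median -0.01), and their summed signal was 83324 to 90381 in WT and 78853 to 83313 in S1/2-/- mice. Of the 7 tested microglial markers 6 were higher, with a median of 0.21. The part of these shifts in the enzyme differences was not tested, and in bulk tissue fewer cells of a type and less RNA per cell cannot be told apart.

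**Figure D4:**
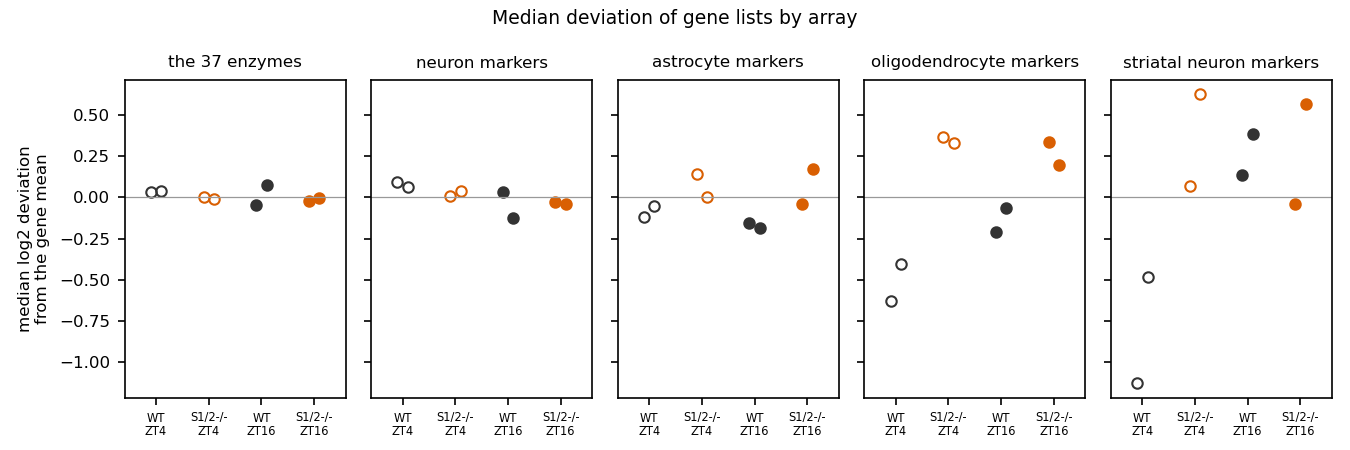
Median log2 deviation from the gene mean, for the 37 enzymes and for lists of cell type markers, with 1 point per array (WT grey, S1/2-/- orange, ZT4 open, ZT16 filled). The enzymes stay within 0.08 of zero while oligodendrocyte markers run from -0.63 to 0.37 and striatal neuron markers from -1.13 to 0.62.

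Within single times the comparison rests on 2 mice against 2. At ZT4, 0 of 37 members were called, where 7 of all probe sets (0.0939%) were, and 2 members had an unadjusted p under 0.05 (5.41%, against 7.28% of all). These were *Pdk1* and *Pgam1*, both lower in S1/2-/- mice. The count was 1 without any single S1/2-/- array, 3 without either WT ZT4 array and 4 without either WT ZT16 array, against 5.82% to 9.07% of all. *Pdk1*, which phosphorylates and silences the E1 subunit, had signals of 430 and 492 in WT against 229 and 268 in S1/2-/- mice at ZT4, then 365 and 248 in WT against 357 and 263 in S1/2-/- mice at ZT16. The genotypes were apart at ZT4 and overlapped at ZT16. The log2 difference was -0.89 at ZT4 (SE 0.25, adjusted p = 0.402 from limma), 0.539 times WT, and 0.02 at ZT16. Striatal neuron markers were also apart at ZT4, with a summed signal of 4224 to 4715 in WT and 9278 to 13941 in S1/2-/- mice, against 10374 to 14733 and 7344 to 12126 at ZT16. All 7 tested oligodendrocyte markers were higher in S1/2-/- mice at ZT4, with a median of 0.88 and 3 called. The part of these markers in the *Pdk1* difference was not tested.

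Of the 14 glycolytic enzymes, 10 were lower in S1/2-/- mice at ZT4, with a median of -0.09, where 49.2% of all probe sets were higher. Only 1 of the 14 had an unadjusted p under 0.05 there (7.14%, against 7.28% of all). At ZT16 they were evenly split, 7 and 7 with a median of -0.01. At ZT16, 0 of 37 members were called, where 1 of all probe sets (0.0134%) was. At an unadjusted p under 0.05 stood 4 members (10.8%, against 10.9% of all), *Ldhb* at -0.34, *Idh2* at 0.50, *Gapdh* at -0.18 and *Pfkp* at -0.30, with adjusted p of 0.365 to 0.412 from limma. The values were smaller without WT ZT16 replicate 2, at -0.22 for *Ldhb*, -0.10 for *Gapdh* and -0.19 for *Pfkp*, and without S1/2-/- ZT16 replicate 2 that of *Pfkp* was -0.17. Without WT ZT16 replicate 1 they were larger, at -0.46 for *Ldhb* and -0.26 for *Gapdh*. Without S1/2-/- ZT16 replicate 1, *Pfkp* was at -0.42. After quantile normalization *Gapdh* was at -0.03, and with each array centred on its median at -0.28. The count of 4 was 0 without S1/2-/- ZT16 replicate 2 (7.66% of all), 2 without S1/2-/- ZT16 replicate 1 (6.75%) or S1/2-/- ZT4 replicate 1 (10.1%), 10 without WT ZT16 replicate 1 (18.3%) and 1 without the intensity trend (9.36%). At this time all 7 oligodendrocyte markers were higher in S1/2-/- mice too, with a median of 0.48, and the summed choroid plexus signal was 3222 to 3694 in WT against 383 to 491 in S1/2-/- mice. Their part was not tested. Over all members the median was -0.05 at ZT4 (15 higher, 22 lower) and 0.01 at ZT16 (19 higher, 18 lower). With each array centred on its median, the counts were 12 and 25 at ZT4, then 9 and 28 at ZT16. These comparisons share arrays with the average over times.

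The change from the light to the dark phase was as small. In WT mice 0 of 37 members were called between ZT4 and ZT16, where 1 of all probe sets (0.0134%) was, and in S1/2-/- mice 0 of 37, where 0% of all probe sets were. Averaged over genotypes 0 members were called, again with 0% of all probe sets. Ordinary ANOVA called 0 members in each, and 0 of all 7455 probe sets. At an unadjusted p under 0.05 stood 1 member in WT mice (2.70%, against 7.61% of all), 1 in S1/2-/- mice (2.70%, against 7.30%) and 3 in the average (8.11%, against 9.38%). These counts were 10 (15.7% of all), 6 (9.48%) and 9 (15.5%) without WT ZT16 replicate 1. Without WT ZT16 replicate 2 the WT count was 0 (5.67%) and the S1/2-/- count 6 (9.43%). Without S1/2-/- ZT4 replicate 1 the S1/2-/- count was 0 (4.49%) and the averaged count 0 (6.53%), without S1/2-/- ZT4 replicate 2 the S1/2-/- count was 2 (7.69%), without S1/2-/- ZT16 replicate 2 it was 0 (5.51%), and without WT ZT4 replicate 1 the averaged count was 1 (6.96%). The median log2 change was -0.06 in WT mice with 16 higher and 21 lower, and -0.02 in S1/2-/- mice with 17 higher and 20 lower. With each array centred on its median, the S1/2-/- split became 13 and 24. For 35 of 37 members (94.6%) the 95% interval of the averaged change excluded 1.5-fold, which held for 65.6% of all tested probe sets. The exceptions among the members were *Eno3* and *Pdk4*.

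*Ogdh* had the lowest p of the averaged change. Its signals were 2126 and 2024 in WT against 2095 and 2286 in S1/2-/- mice at ZT4, then 2166 and 2582 in WT against 2586 and 2634 in S1/2-/- mice at ZT16. The times overlapped at 1 array each, and ZT16 was higher by 0.22 (SE 0.08, adjusted p = 0.440 from limma), or by 0.16 without WT ZT16 replicate 2. *Mdh2* gave 6263 and 6091 in WT against 6104 and 5968 in S1/2-/- mice at ZT4, then 5893 and 5361 in WT against 5112 and 5620 in S1/2-/- mice at ZT16. All ZT16 arrays were below all ZT4 arrays, at a log2 change of -0.15 (SE 0.06, adjusted p = 0.483 from limma). So the enzyme that oxidizes 2-oxoglutarate and the enzyme that closes the cycle differed in direction, neither past the threshold. *Ldhb* was lower at ZT16 by a log2 change of -0.17 (adjusted p = 0.528 from limma), or -0.12 without either WT ZT4 replicate 1 or WT ZT16 replicate 1.

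The enolases were the other members whose times did not overlap. *Eno3*, the muscle enolase, gave 246 and 280 in WT against 254 and 230 in S1/2-/- mice at ZT4, then 313 and 295 in WT against 292 and 302 in S1/2-/- mice at ZT16, a log2 change of 0.25 (SE 0.15, adjusted p = 0.609 from limma). *Eno2* gave 9147 and 8961 in WT against 8290 and 9016 in S1/2-/- mice at ZT4, then 9194 and 9336 in WT against 9575 and 9363 in S1/2-/- mice at ZT16, a change of 0.08 (SE 0.06, adjusted p = 0.650 from limma), or 0.05 without S1/2-/- ZT4 replicate 1. Both were higher in the dark phase on every array. Together with *Mdh2* these make 3 of 37 members without overlap (8.11%), against 5.06% of all probe sets. Other glycolytic members had averaged changes between -0.19 (*Pfkm*) and 0.16 (*Pfkl*, the liver-type phosphofructokinase).

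**Figure D5:**
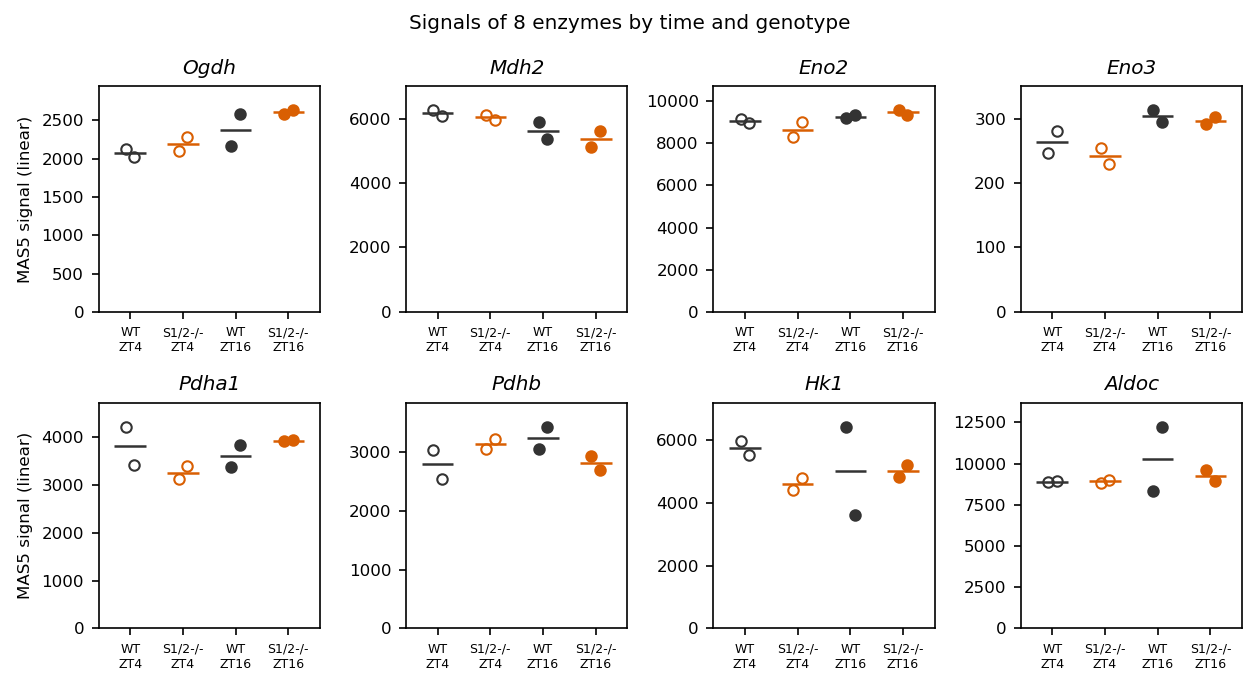
MAS5 signals (linear axis from 0) of 8 enzymes, with 1 point per mouse, bars at the mean of 2 mice, WT in grey, S1/2-/- in orange, ZT4 open and ZT16 filled. *Eno2* and *Eno3* are higher and *Mdh2* lower on every ZT16 array, and single WT ZT16 arrays are far off for *Hk1* and *Aldoc*.

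In single genotypes the members with an unadjusted p under 0.05 belonged to the pyruvate dehydrogenase branch. *Pdk1* was lower at ZT16 in WT mice by a log2 change of -0.61 (SE 0.25, adjusted p = 0.625 from limma), a value of -0.33 without WT ZT16 replicate 2. *Pdha1* gave 3124 and 3395 at ZT4, then 3927 and 3934 at ZT16 in S1/2-/- mice, higher by 0.27 (SE 0.12, adjusted p = 0.674 from limma), while WT mice gave 4221 and 3428 at ZT4, then 3376 and 3839 at ZT16, where the times overlapped. In WT mice *Hk1* (5975 and 5543 at ZT4, 6433 and 3603 at ZT16) and *Aldoc* (8854 and 8943 at ZT4, 8326 and 12235 at ZT16) had ZT16 arrays on either side of the ZT4 arrays. Markers of other cells and tissue moved with time in WT mice. All 7 tested oligodendrocyte markers were higher at ZT16, with a median of 0.41 and 5 at an unadjusted p under 0.05, and the summed signal of the 8 on the array was 16854 to 18621 at ZT4 and 22386 to 22904 at ZT16. The summed signal of 6 striatal markers was 4224 to 4715 at ZT4 and 10374 to 14733 at ZT16, and that of 7 choroid plexus markers was 485 to 677 and 3222 to 3694. Their part in the WT values was not tested. Without WT ZT16 replicate 1, which leaves replicate 2 alone, *Hk1* was called at -0.68, the only member called in any setting that left out 1 array.

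Whether the time change differed between the genotypes was tested directly. Here 0 of 37 members were called, with 0% of all probe sets called, and 2 members had an unadjusted p under 0.05 (5.41%, against 5.69% of all). The count was 5 without WT ZT16 replicate 1 (11.7% of all), 0 without S1/2-/- ZT4 replicate 1 (4.63%), 2 without WT ZT4 replicate 1 (5.22%) and 1 without any of the other 5 arrays. The 2 were *Pdk1*, whose change was 0.92 higher in S1/2-/- mice (SE 0.36, adjusted p = 0.834 from limma), and *Pdhb* at -0.38 (SE 0.16, adjusted p = 0.868 from limma), or -0.25 without WT ZT4 replicate 2. *Pdhb* gave 3033 and 2544 at ZT4, then 3048 and 3431 at ZT16 in WT mice, against 3054 and 3221 at ZT4, then 2927 and 2687 at ZT16 in S1/2-/- mice, so it was higher at ZT16 in WT and lower in S1/2-/- mice. All 7 oligodendrocyte markers had a lower time change in S1/2-/- mice than in WT, with a median of -0.38, as did 3 of 4 striatal markers, with a median of -1.51. Their part in the *Pdk1* and *Pdhb* values was not tested. The 95% interval of this difference excluded 1.5-fold for 19 of 37 members (51.4%), against 19.4% of all tested probe sets. The remaining 18 members could differ by more than 1.5-fold. The WT and S1/2-/- changes share no array, and across the 37 members they had the same sign in 26 (70.3%, against 54.9% of all probe sets), 11 higher and 15 lower in both, with Pearson's r of 0.11 across genes, which are no independent replicates, and 0.11 over all probe sets as well.

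The neighbouring pathways were followed through 71 further genes on the array, of which 54 were tested. They comprise glucose and lactate transport, glycolysis regulators, gluconeogenesis, the pentose phosphate pathway, glycogen metabolism, succinate dehydrogenase, metabolite shuttles, and creatine and adenylate kinases. In each of the 7 comparisons 0 of 54 were called in limma. For genotype averaged over times, 12 of 54 (22.2%, against 12.4% of all) had an unadjusted p under 0.05, 6 higher and 6 lower in S1/2-/- mice. Leaving out 1 array, this count ran from 5 without S1/2-/- ZT16 replicate 1 (8.88% of all) to 15 without WT ZT16 replicate 1 (17.8% of all), it was 8 without WT ZT4 replicate 1 and without S1/2-/- ZT4 replicate 1, and without the intensity trend it was 7 (10.7% of all). The lowest p belonged to *Tkt*, transketolase of the pentose phosphate pathway. *Tkt* gave 1816 and 1985 in WT against 1484 and 1410 in S1/2-/- mice at ZT4, then 1789 and 2101 in WT against 1520 and 1384 in S1/2-/- mice at ZT16. Every S1/2-/- array was below every WT array, at -0.41 (adjusted p = 0.115 from limma). *Gpd1*, the cytosolic glycerol phosphate dehydrogenase that is known from oligodendrocytes, was higher by 0.57 (adjusted p = 0.225 from limma), and *Acly*, ATP citrate lyase, differed by -0.32 (adjusted p = 0.277 from limma).

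For the averaged time change 6 of the 54 had an unadjusted p under 0.05, all higher at ZT16 (11.1%, against 9.38% of all). The count was 2 without WT ZT4 replicate 1 (6.96% of all) or WT ZT16 replicate 2 (8.84%), 3 without S1/2-/- ZT16 replicate 1 (7.35%) and 10 without WT ZT16 replicate 1 (15.5%). *Pfkfb3*, which makes the activator of phosphofructokinase, had the largest change of these, 1.07 (adjusted p = 0.407 from limma). Its signals were 43.5 and 146 in WT against 218 and 259 in S1/2-/- mice at ZT4, then 239 and 375 in WT against 259 and 301 in S1/2-/- mice at ZT16, so the WT mice at ZT4 stood below the others. The time change of *Pfkfb3* was smaller in S1/2-/- than in WT mice (unadjusted p under 0.05 from limma, not called), so the average rests mainly on WT mice. *Gatm*, of creatine synthesis, had the lowest p, with a change of 0.28 (adjusted p = 0.353 from limma). The list for succinate dehydrogenase, a TCA cycle enzyme, held 6 tested genes, among them *Sdhaf1*, which makes an assembly factor. All 6 were lower at ZT16 in the average (median -0.10), where 49.3% of all probe sets were higher. In WT mice 1 was higher and 5 lower (median -0.18), and in S1/2-/- mice 3 were higher and 3 lower (median -0.02). Of 11 glycogen genes 10 were higher in the average (median 0.10), with 6 higher and 5 lower in WT mice (median 0.04) and 9 higher and 2 lower in S1/2-/- mice (median 0.17). None of these genes passed an unadjusted p of 0.05 in the average.

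Among the 13 members with several probe sets, the choice of probe set mattered for a few, such as *Sucla2* in the genotype difference. The dimmer *Pkm* probe set gave 1884 and 2334 at ZT4, then 3781 and 4167 at ZT16 in S1/2-/- mice, a change of 0.92, where the chosen one gave 0.10. In WT mice the same dimmer set gave 1953 and 4189 at ZT4, then 3040 and 2782 at ZT16. When all probe sets of a gene were averaged, 0 members were called in any comparison, where 0% to 0.235% of 5964 probe sets or genes were.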

How the data were processed

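Cortical RNA of 8 mice was hybridized to 1 Affymetrix MG-U74Av2 array each. The authors deposited MAS5 signal intensity values on a linear scale, 1 per probe set and array, which were already scaled, since every array has a mean of 500 after 2% of values are trimmed at each end. None of the sources used here names the MAS5 version. The labels give Trizol and 5 µg of RNA, the methods RNeasy columns and 1 round of amplification.

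Groups were taken from the sample titles, with 2 biological replicates each. Signals below 1 were set to 1 and log2 was taken. Control probe sets were left out, except the *Gapdh* 5′ set and the *Pcx* 3′ set that the symbol rule picked. The filter kept probe sets with a mean log2 signal at or above the 40th percentile (6.79). A linear model with a mean for each of the 4 groups was fitted to the 8 arrays (limma 3.58.1, R 4.3.3), with an intensity trend, 4 residual and 6.02 prior degrees of freedom. The 7 comparisons were ZT16 against ZT4 in each genotype, their difference, S1/2-/- against WT at each time, and both averages, with p adjusted over 7455 probe sets. The 95% intervals use limma's standard errors. The fit was tested on simulated data. Values of members below the filter come from a fit without it.

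The processing was varied in the filter (none, or at the 60th percentile), the scaling (median centring or quantile normalization), the low values (a pseudocount of 16) and the variance model (no trend). Further alternatives were a replicate block, only the groups compared, ordinary ANOVA, other call rules, the mean over probe sets of a gene, and leaving out each array. For the neighbouring pathways, the scaling, the variance model and the left-out arrays were varied after their values were seen. Replicate numbers did not pair the samples, since the correlation of replicate differences between groups was -0.0014 to 0.098. Genes given by sample were those with an unadjusted p under 0.05 in a comparison and the brightest isoenzyme of each step, 25 in all. *Dlst*, *Suclg1*, *Suclg2*, *Pfkl*, *Eno3*, *Aldoc*, *Idh1* and *Pdk4* were named after their values were seen. The members and the gene lists were chosen with earlier results of these data known. Symbols that the rule lists but no single-symbol probe set here carried, such as *Eno1* and *Pdk2*, were not analysed here. *Gapdh* is also matched by probe sets with several symbols, which were not used, and *Aldoart2* is a retrogene of *Aldoa* that the rule included.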

Additional observations from a re-analysis of the deposited data

How the results depend on the processing

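No member was called by limma, and this count of 0 in each of the 7 comparisons held under every alternative except 2. Without WT ZT16 replicate 1, *Hk1* was called in the WT time change, where all probe sets gave 100 calls in place of 1. With an unadjusted p in place of the adjusted p, 1 member passed in each of the WT time change, the ZT4 genotype comparison and the difference of the time changes, *Pdk1* each time. Of all 7455 probe sets, 257, 248 and 298 passed in these 3 comparisons. With the replicate number as a block, 0 members were called in each comparison, and the block changed no call of a member. The median change of the members moved by more than the pooled SD of the array medians (0.05 on the log2 scale) with median centring, to -0.0031 for the difference of the time changes, -0.087 for genotype at ZT16 and -0.082 for genotype averaged over times. Leaving out 1 array at a time, the medians ranged from -0.082 to 0.014 for time in WT, -0.093 to 0.031 for time in S1/2-/- mice, -0.020 to 0.078 for the difference of these changes, -0.067 to -0.017 for genotype at ZT4, -0.000078 to 0.058 for genotype at ZT16, -0.053 to -0.00027 for the averaged time change and -0.037 to -0.0022 for the averaged genotype difference. The number of members at an unadjusted p under 0.05 under the alternatives that kept all arrays was 1 to 2 for time in WT (1 as reported), 0 to 4 for time in S1/2-/- mice (1), 0 to 3 for the difference of these changes (2), 2 to 5 for genotype at ZT4 (2), 1 to 6 for genotype at ZT16 (4), 1 to 6 for the averaged time change (3) and 3 to 7 for the averaged genotype difference (7). As reported, the shares of all probe sets were 7.61%, 7.30%, 5.69%, 7.28%, 10.9%, 9.38% and 12.4%, in the same order. For the members and comparisons with an unadjusted p under 0.05, refits under the alternatives, other call rules aside, gave 348 values, and 348 kept their direction and stayed short of a call. A fit of only the groups compared was not run for the difference of the time changes or the averages, which need all groups. With 2 mice a group, the median SE of a member's log2 difference was 0.13.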
